A study of Mus musculus with 16 samples.

Results

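Heterozygous loss of *Srf* in neural crest was compared with Cre-negative embryos, within the control arm of a mouse study of conditional *Srf* deletion. The members are the control libraries of that study, taken by their genotype labels, and they make up 8 of 16 libraries and 4 of 8 embryos. The heterozygous genotype, *Srf* flox/+; Wnt1-Cre, was that of embryos 1 and 7. Neither embryo 2 (*Srf* flox/flox) nor embryo 8 (*Srf* flox/+) had Cre. RNA was sequenced from the frontonasal prominence (FNP, the lateral and medial nasal processes together) and from the mandible of every embryo at E11.5. Each litter gave 1 *Srf* flox/+; Wnt1-Cre embryo and 1 Cre-negative embryo, embryos 1 and 2 from the first and embryos 7 and 8 from the second. The mutants of the study, *Srf* flox/flox; Wnt1-Cre, are the other 4 embryos (3 to 6) and are given beside the controls where their levels bear on a gene described here. All embryos were on a 129S4 background, and all carried at least 1 floxed *Srf* allele, including the Cre-negative ones. For brevity *Srf* flox/+; Wnt1-Cre embryos are called heterozygotes and the *Srf* flox/flox and *Srf* flox/+ embryos without Cre are called Cre-negative. The Cre-negative pair thus pools 2 genotypes of 1 embryo each.

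SRF is a MADS-box transcription factor that binds the CArG box, a short sequence with an AT-rich core between CC and GG. It works with either of 2 kinds of cofactor. The myocardin-related factors MRTFA and MRTFB are held back by monomeric actin and, once released, raise actin and other cytoskeletal genes with SRF, while the ternary complex factors ELK1, ELK3 and ELK4 answer ERK signalling and act on immediate early genes. *Srf* itself and several actin genes are textbook targets, so that the gene takes part in its own control. Wnt1-Cre is active in the neural crest lineage, which forms most of the facial mesenchyme. The floxed allele should remain whole in the epithelium, endothelium, blood and skeletal muscle of the same dissection.

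Promoter CArG boxes are shown for genes whose levels are described below, since this is the sequence that SRF binds. A CArG box was searched in the window from 250 bases before to 50 bases after each start site in RefSeq (build GRCm38.p6). The motif reads as a CArG box on either strand, so 1 search covers both. It was found in 6 of the 10 genes with a window among 13 genes that are lower in both tissues of *Srf* mutants, and in 7 of the 35 with a window in a wider list of MRTF-SRF targets, against 488 of 27025 genes overall (1.81%) and 535 of 32851 windows (1.63%). A match is only a match of letters. The wider list was written from general knowledge of SRF targets, so its share may be high by choice and is no test. Not all matches of the wider list are printed. *Srf* holds 2 at 82 and 62 bases before its start, at chr17:46556225-46556254 and chr17:46556205-46556234 on the minus strand. *Actg1* holds 1 at chr11:120348566-120348595 on the minus strand, *Cnn2* 1 at chr10:79988534-79988563 on the plus strand, *Vcl* 1 at chr14:20929161-20929190 on the plus strand, and *Lima1* 1 at chr15:99820177-99820206 on the minus strand. *Fhl2* holds 1 at chr1:43196838-43196867 and, at another start site, 1 at chr1:43163973-43164002, both on the minus strand. *Myl9*, which is not among the 13, holds 1 at chr2:156775293-156775322 on the plus strand. Each is printed 5′ to 3′ on the strand of its gene, with the CArG box in capitals.
*Srf*, distal: ctggggctcgCCATATAAGGagcggcctcg
*Srf*, proximal: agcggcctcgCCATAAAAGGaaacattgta
*Actg1*: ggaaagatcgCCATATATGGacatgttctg
*Cnn2*: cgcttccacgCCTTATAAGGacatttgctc
*Vcl*: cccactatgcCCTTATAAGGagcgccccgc
*Fhl2*, first: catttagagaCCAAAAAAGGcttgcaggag
*Fhl2*, second: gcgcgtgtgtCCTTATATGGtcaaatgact
*Lima1*: ctcactttgtCCTTATAAGGctatcctgtt
*Myl9*: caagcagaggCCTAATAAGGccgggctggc

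Gene values summed to 10.3 to 11.2 m in the 8 control libraries. The authors had scaled these values, and the number of reads per gene is not known from them. Errors are judged from the spread between libraries left after genotype, tissue and litter, and from a variance borrowed across genes. They are not a spread between embryos alone. The tissue labels held, since *Dlx1*, a homeobox gene of the jaw, stood at 101 to 150 TPM in the mandibles and 1.67 to 5.18 TPM in the FNPs, and *Fezf1*, a forebrain regulator, at 0 to 0.121 TPM in the mandibles and 13.2 to 17.1 TPM in the FNPs. Levels below are the authors' TPM (transcripts per m, scaled once more by a factor of each library), and tests are on log2(value + 0.5) of the gene values by limma with tissue and litter as covariates. The threshold for a call was an adjusted p (Benjamini-Hochberg) no larger than 0.05. The fit takes the FNP and the mandible of an embryo as separate samples although they come from 1 animal. With 2 embryos a side there are 6 arrangements, and the smallest two-sided p of an exact permutation test over embryos is 0.333. That test was run on log2(TPM + 0.1) averaged over the tissues of an embryo. It exchanges embryos across litters, so it takes no account of litter.

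*Srf* was lower in heterozygotes in both tissues and in both litters. In the FNP it stood at 48.9 and 34.7 TPM in heterozygotes (embryos 1 and 7), against 75.2 and 56.5 TPM in Cre-negative embryos (embryos 2 and 8). In the mandible it stood at 48.1 and 34.4 TPM in heterozygotes, against 65.9 and 56.9 TPM in Cre-negative embryos. The groups did not overlap in either tissue, and in each group the embryo of the first litter was the higher. The heterozygote mean was 63.5% of the Cre-negative mean in the FNP (41.8 ± 10.03 against 65.8 ± 13.2 TPM, SD, n = 2 each) and 67.2% in the mandible (41.2 ± 9.70 against 61.4 ± 6.38 TPM, SD, n = 2 each). Between littermates the heterozygote had 65.0% and 61.5% of the Cre-negative level in the FNP (first and second litter) and 73.0% and 60.4% in the mandible. *Srf* lies on chromosome 17 from 46548329 to 46556175 on the minus strand of GRCm38. In bulk tissue, fewer cells of a type and less RNA per cell cannot be told apart.

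The log2 fold change of *Srf*, heterozygote over Cre-negative, was -0.63 (SE 0.0752, 95% interval -0.80 to -0.46, Benjamini-Hochberg adjusted p = 0.0330 in limma). The difference over embryos had p = 0.333 in the two-sided exact permutation test, the smallest possible. The size ran from -0.70 to -0.56 over the settings, but the call was kept in only 8 of 18 other settings and lost in 10. Both groups are balanced over tissue and litter, so settings of the error, the gene filter or the litter term return the same -0.63. Without embryo 1 or 2 the value is that of the second litter's pair (-0.70), and without embryo 7 or 8 that of the first (-0.56). With the tissues averaged per embryo, so that an embryo counts as 1 sample, the adjusted p was 0.346, and leaving out embryo 1, 2, 7 or 8 gave 0.725, 0.430, 0.560 and 0.9998 (limma). The interaction of tissue and genotype was not called for *Srf* (0.08 on the log2 scale, mandible minus FNP, limma adjusted p = 0.9997).

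Mutants stood below the heterozygotes in every library. *Srf* was at 11.8, 14.7, 13.2 and 13.1 TPM in mutant FNPs (embryos 3 to 6) and at 11.6, 14.1, 12.5 and 10.8 TPM in mutant mandibles, which is 20.1% of the Cre-negative mean in the FNP and 19.95% in the mandible. In a fit of all 16 libraries with 3 genotype classes, mutants over heterozygotes had a log2 fold change of -1.74 for *Srf* (SE 0.0972, limma, Benjamini-Hochberg adjusted p = 2.31e-08). The 3 classes thus lay in the order of their intact alleles, with no overlap between neighbouring classes in either tissue.

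**Figure D1:**
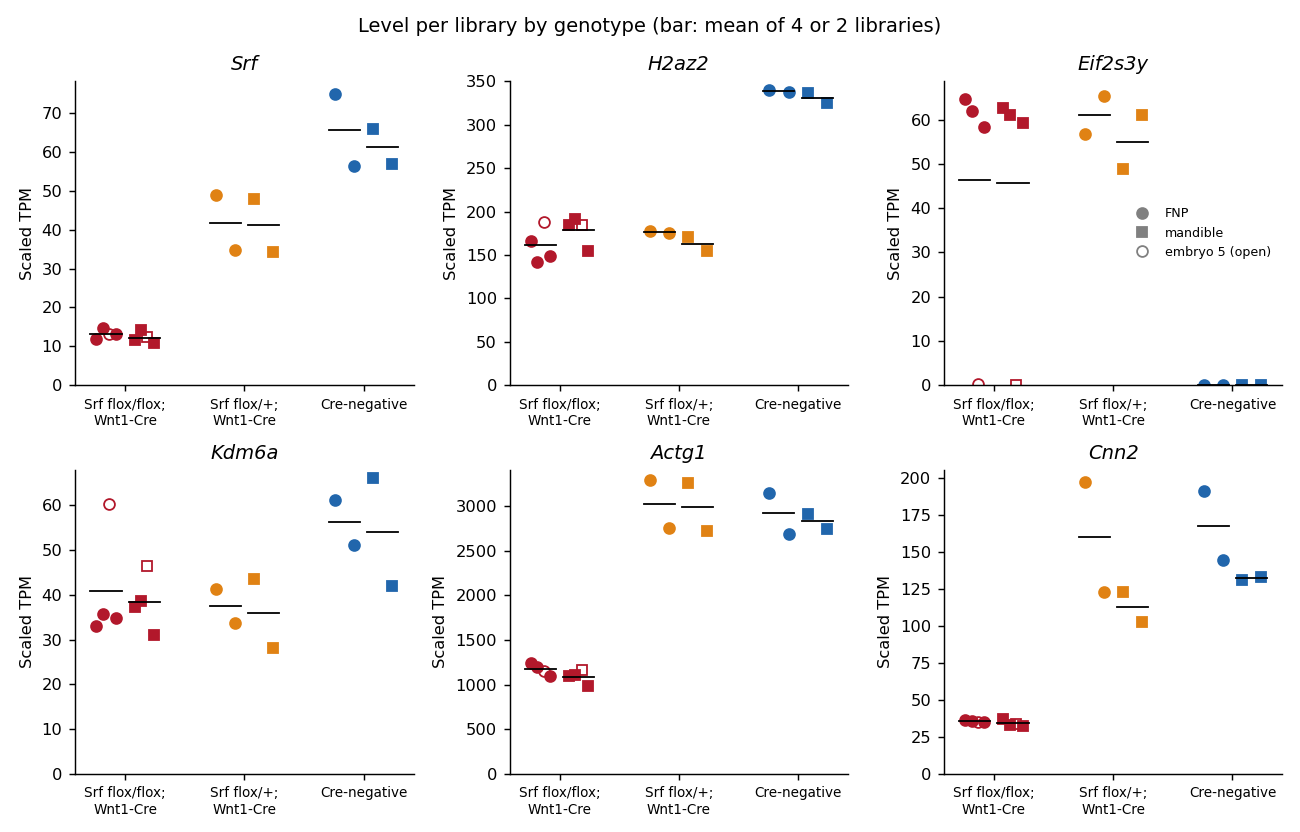
Level in scaled TPM (y axis, from 0) of 6 genes in every library, with mutants, heterozygotes and Cre-negative embryos from left to right, circles for the FNP, squares for the mandible and bars for the means. *Srf* falls into 3 separate levels, *H2az2* and the Y-linked *Eif2s3y* separate the heterozygotes from the Cre-negative embryos, and *Actg1* and *Cnn2* are low only among mutants; embryo 5 (open symbols) departs from the other mutants in *Eif2s3y* and *Kdm6a*.

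Across the whole transcriptome few genes were called, and with 2 embryos a side smaller differences may go uncalled. Of 14159 genes tested, 11 were called (0.0777%), 7 lower (0.0494%) and 4 higher (0.0283%) in heterozygotes, and the median log2 fold change was 0.00 with a median SE of 0.0884. The 7 lower genes were *H2az2*, *Gm26992*, *Eif2s3x*, *AC149090.1*, *Kdm5c*, *Srf* and *Kdm6a*, and the 4 higher genes were *Kdm5d*, *Eif2s3y*, *Ddx3y* and *Uty*. The smallest log2 difference that was called was 0.45 in size. Without embryo 1, 2, 7 or 8 the count was 6, 7, 7 and 6, and with the tissues averaged per embryo it was 7. At an unadjusted p under 0.05 there were 536 genes (3.79%), 260 lower (1.84%) and 276 higher (1.95%).

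**Figure D2:**
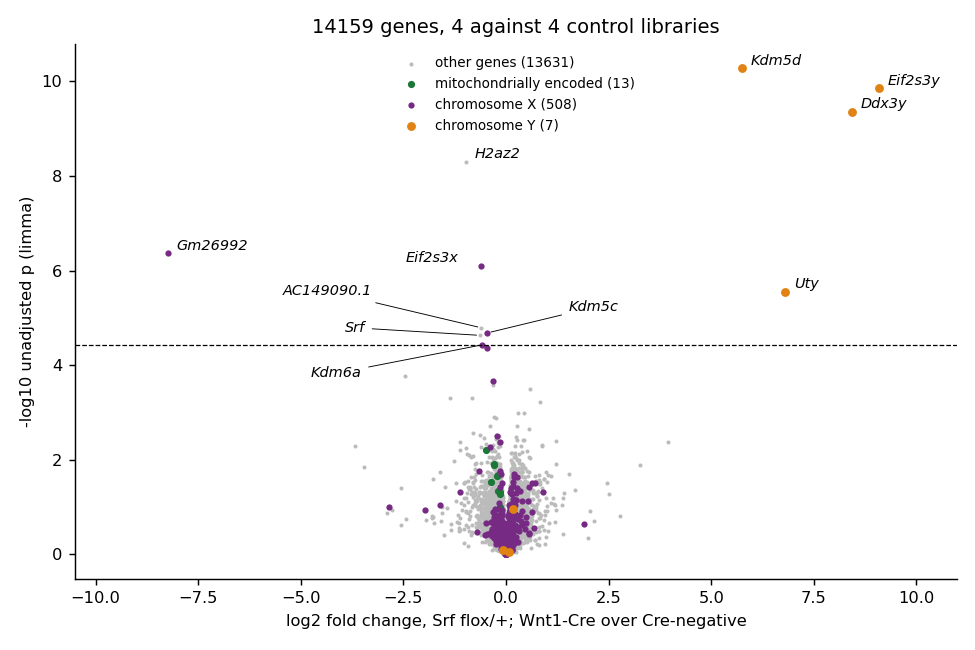
Log2 fold change of heterozygotes over Cre-negative embryos (x axis) against -log10 of the unadjusted limma p (y axis) for 14159 genes, with genes on chromosomes X and Y and in the mitochondrial genome coloured and the dashed line at the least significant gene called. The 4 genes called higher are all on chromosome Y, and *Srf* and *H2az2* are the called genes on autosomes. The fitted fold changes of the Y-linked genes and *Gm26992* depend on the pseudocount, because these genes are near 0 in 1 group.

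*H2az2* had the smallest adjusted p among the genes called lower. It encodes a variant of histone H2A.Z, and the allele name of the Wnt1-Cre line used in the study places the transgene at this gene. In the FNP it stood at 177 and 175 TPM in heterozygotes, against 341 and 338 TPM in Cre-negative embryos. In the mandible it stood at 171 and 155 TPM in heterozygotes, against 337 and 325 TPM in Cre-negative embryos. The heterozygote mean was 51.9% of the Cre-negative mean in the FNP and 49.1% in the mandible, and no library of a group came near the other group. The log2 fold change was -0.98 (SE 0.0408, limma, Benjamini-Hochberg adjusted p = 1.76e-05, exact permutation p over embryos 0.333, the smallest possible), and *H2az2* was called in 18 of 18 other settings. The mutants, which carry Wnt1-Cre too, had 141 to 191 TPM over their 8 libraries, and mutants over heterozygotes differed by -0.03 on the log2 scale (SE 0.0716, limma adjusted p = 0.894). *H2az2* was therefore low in all 12 libraries with Wnt1-Cre and high in the 4 without it. It lies on chromosome 11 from 6427229 to 6444443 on the minus strand.

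*Wnt1*, whose regulatory sequence drives the transgene, was at 0.0335 and 0.117 TPM in heterozygote FNPs and at 0 TPM in the Cre-negative FNPs and in all 4 control mandibles, and was too low to be tested. Of 15 Wnt target genes none was called, 12 had a positive and 3 a negative log2 fold change, and their median was 0.09 beside 0.00 over all genes. The medians between littermates were -0.03 and 0.47 in the FNP (first and second litter) and 0.10 and -0.10 in the mandible, so that the positive median was largest in 1 pair, the FNPs of embryos 7 and 8. *Axin2*, a feedback inhibitor of Wnt signalling, stood at 53.1 and 88.6 TPM in heterozygote FNPs, against 44.7 and 64.8 TPM in Cre-negative FNPs. *Znrf3*, a ubiquitin ligase that removes Wnt receptors, was the target gene with an unadjusted p under 0.05 (log2 fold change 0.15, limma adjusted p = 0.998).

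Genes near *H2az2* were compared in the same fit. Within 1 Mb of it 27 other genes were tested and none was called (limma), 17 had a negative and 10 a positive log2 fold change, and their median was -0.04. At an unadjusted p under 0.05 there were 6 of the 27 (22.2%, against 3.79% of all genes), 5 lower and 1 higher, and within 5 Mb 9 of 72 (12.5%). *Nudcd3*, a cochaperone of the dynein complex, stood at 66.3 and 60.6 TPM in heterozygote FNPs, against 76.0 and 68.6 TPM in Cre-negative FNPs, and at 65.8 and 61.9 TPM in heterozygote mandibles, against 71.5 and 68.5 TPM in Cre-negative mandibles (log2 fold change -0.16, SE 0.0391, limma adjusted p = 0.998). *Zmiz2*, a transcriptional coregulator, had a log2 fold change of -0.14, *Pold2*, a subunit of DNA polymerase delta, -0.22, *Purb*, a single-stranded nucleic acid binding protein, -0.10, and the pseudogene *Ube2d-ps* -0.36. The gene that was higher was *Znrf3*. In mutants *Nudcd3* was at 55.6 to 68.5 TPM and *Zmiz2* at 45.1 to 52.2 TPM, with differences from heterozygotes of -0.07 and -0.05 on the log2 scale. Whether this window departs from the rest of the genome was not tested.

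The other called genes were sex-linked, with 1 exception. *Eif2s3y*, a Y-linked translation initiation factor subunit, stood at 56.7 and 65.5 TPM in heterozygote FNPs and 48.9 and 61.0 TPM in heterozygote mandibles, against 0 and 0.0480 TPM in Cre-negative FNPs and 0 and 0.0457 TPM in Cre-negative mandibles. The Y-linked RNA helicase *Ddx3y* stood at 30.6 to 40.1 TPM, the histone demethylase *Kdm5d* at 16.9 to 21.8 TPM and its relative *Uty* at 17.5 to 19.9 TPM in heterozygotes, against at most 0.130, 0.505 and 0.494 TPM in Cre-negative embryos. *Gm26992*, on chromosome X where it overlaps *Xist* on the opposite strand, so that reads of the pair may not be told apart, stood at 0 to 1.08 TPM in heterozygotes, against 97.4 to 148 TPM in Cre-negative embryos. Both heterozygotes thus expressed Y-linked genes and both Cre-negative embryos did not, so that Y-linked expression, Wnt1-Cre and the loss of 1 *Srf* allele cannot be told apart in these 4 embryos. This bears on all genes of the comparison.

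Apart from *Gm26992*, the X-linked genes called lower are relatives of the Y-linked ones, and in mice they are known to escape X inactivation. *Eif2s3x* stood at 182 and 164 TPM in heterozygote FNPs, against 284 and 238 TPM in Cre-negative FNPs, and at 164 and 142 TPM in heterozygote mandibles, against 237 and 233 TPM in Cre-negative mandibles. Its log2 fold change was -0.60 (SE 0.0464, limma, Benjamini-Hochberg adjusted p = 0.00189). *Kdm5c* was at -0.45 on the same scale (SE 0.0529, limma adjusted p = 0.0325) and *Kdm6a* at -0.58 (SE 0.0736, limma adjusted p = 0.0476), and for *Kdm6a* the groups overlapped in the mandible. *Pbdc1*, also on chromosome X, missed the threshold at -0.46 (limma adjusted p = 0.0520), and *Ddx3x* was at -0.14 (limma adjusted p = 0.998). Chromosome X as a whole was not shifted, with a median log2 fold change of 0.00 over 508 genes and 4 called.

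The sum of an X-linked gene and its Y-linked relative was closer between the groups than the X-linked gene alone. *Kdm6a* and *Uty* together stood at 61.0 and 51.9 TPM in heterozygote FNPs, against 61.3 and 51.7 TPM in Cre-negative FNPs, and at 63.5 and 45.6 TPM in heterozygote mandibles, against 66.3 and 41.9 TPM in Cre-negative mandibles. *Eif2s3x* and *Eif2s3y* together stood at 238 and 230 TPM in heterozygote FNPs, against 284 and 238 TPM in Cre-negative FNPs, and at 213 and 204 TPM in heterozygote mandibles, against 237 and 233 TPM in Cre-negative mandibles. These sums were formed after the calls were seen and were not tested.

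Among mutants, embryos 3, 4 and 6 expressed the Y-linked genes and embryo 5 did not, with *Eif2s3y* at 0.130 TPM in its FNP and 0.0668 TPM in its mandible. Embryo 5 is therefore a Wnt1-Cre carrier without Y-linked expression, and its values can be set beside those of the Cre-negative embryos. Its *H2az2* was at 188 TPM in the FNP and 184 TPM in the mandible, above the other Cre carriers in the FNP, which had 141 to 177 TPM, within their range in the mandible, and below every Cre-negative library. Its *Eif2s3x* was at 268 TPM in the FNP and 235 TPM in the mandible, within the range of the Cre-negative embryos. Its *Srf* was at 13.2 and 12.5 TPM, within the range of the other mutants.

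*AC149090.1*, the exception, lies on an unplaced scaffold. It stood at 14.2 and 17.5 TPM in heterozygote FNPs, against 22.7 and 30.1 TPM in Cre-negative FNPs, and at 14.8 and 17.7 TPM in heterozygote mandibles, against 21.1 and 23.7 TPM in Cre-negative mandibles (log2 fold change -0.60, SE 0.0681, limma adjusted p = 0.0285). The mutants had 18.5 to 30.8 TPM. The call was lost when any of the 4 control embryos was left out, as were those of *Srf*, *Eif2s3x*, *Kdm5c* and *Kdm6a*. Over 17 other settings the call was lost in 10 for *AC149090.1*, 7 for *Eif2s3x*, 9 for *Kdm5c* and 12 for *Kdm6a*. When only genes on the 19 autosomes were tested, 1 was called, *H2az2*, and the adjusted p of *Srf* was 0.149 (limma, an alternative chosen after the data were seen). On autosomes the higher genes with the smallest unadjusted p were *Taf9*, a subunit of the general transcription factor TFIID, and *B3gnt2*, a glycosyltransferase. *Taf9* stood at 20.2 and 23.5 TPM in heterozygote FNPs, against 13.1 and 16.3 TPM in Cre-negative FNPs, and at 18.8 and 18.3 TPM in heterozygote mandibles, against 12.4 and 12.1 TPM in Cre-negative mandibles (log2 fold change 0.59, SE 0.1003, limma adjusted p = 0.285). *B3gnt2* was at 0.84 on this scale (SE 0.157, limma adjusted p = 0.452).

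Of a list of 8 genes, *Srf* with its cofactors and their relative *Mamstr*, 7 were tested and only *Srf* was called. The study describes MAMSTR as a partner of MEF2 proteins that is not known to bind SRF. *Mrtfa*, the actin-regulated coactivator, stood at 19.2 and 17.3 TPM in heterozygote FNPs, against 20.8 and 18.6 TPM in Cre-negative FNPs, with a log2 fold change of -0.07 over both tissues (95% interval -0.25 to 0.11). *Mrtfb*, its close relative, had 0.04 (-0.16 to 0.24). The ternary complex factors *Elk1*, *Elk3* and *Elk4* had 0.05 (-0.08 to 0.17), 0.01 (-0.09 to 0.11) and 0.04 (-0.18 to 0.27). *Mamstr*, a coactivator related to myocardin, had -0.37 (-1.47 to 0.73) at 0.448 to 2.52 TPM, and *Myocd*, myocardin itself, was below the filter at 0.0892 to 0.601 TPM. For *Mrtfa*, *Mrtfb*, *Elk1*, *Elk3* and *Elk4* the intervals hold 0 and reach at most 0.27 in size on the log2 scale, while that of *Mamstr* is too wide to limit its change.

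The cytoplasmic actins stood at about the same level in heterozygotes and Cre-negative embryos. *Actg1*, gamma actin, stood at 3292 and 2757 TPM in heterozygote FNPs, against 3152 and 2683 TPM in Cre-negative FNPs, and at 3260.5 and 2722 TPM in heterozygote mandibles, against 2914 and 2741 TPM in Cre-negative mandibles. Its log2 fold change was 0.06 (95% interval -0.03 to 0.16, limma adjusted p = 0.998). *Actb*, beta actin, had -0.08 (-0.17 to 0.02, limma adjusted p = 0.998). The same genes were at 986 to 1238 TPM and 1238 to 1455 TPM in the mutants, with log2 fold changes of -1.45 and -0.91 for mutants over heterozygotes (limma adjusted p = 1.22e-12 and 2.69e-10). The muscle actins *Acta2*, of smooth muscle, and *Actc1*, of cardiac muscle, had -0.60 and -0.91 with 95% intervals of -1.67 to 0.47 and -2.33 to 0.51, and *Acta1* and *Actg2* were below the filter. In the control mandibles *Actc1* was at 6.20 and 10.9 TPM in heterozygotes, against 5.48 and 21.1 TPM in Cre-negative embryos, and skeletal muscle markers summed to 36.6 to 67.4 TPM in heterozygotes, against 35.1 to 103 TPM in Cre-negative embryos.

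A set of 13 genes, *Srf* among them, had been called lower in both tissues of mutants in an earlier fit of these same 16 libraries. The comparison of mutants with heterozygotes uses the libraries that chose the set and shares the heterozygotes with the main comparison, so the 2 steps are set side by side as a description. Apart from *Srf*, the 12 other genes had a median log2 fold change of -0.02 for heterozygotes over Cre-negative embryos (range -0.22 to 0.11) and of -0.99 for mutants over heterozygotes (range -1.99 to -0.54). For 11 of the 12 the 95% interval of the first step held 0, and the widest reach of these intervals was from -0.43 to 0.32. None of the 12 was called in heterozygotes (limma), and all 12 were called in mutants over heterozygotes, where 40 of 14630 genes were called in all (0.273%), 36 lower (0.246%) and 4 higher (0.0273%). Without embryo 1, 2, 4, 6, 7 or 8 that last count was 16, 26, 25, 69, 19 and 24, and with embryo as a random block it was 25.

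*Cnn2*, calponin 2, which binds actin filaments, stood at 197 and 123 TPM in heterozygote FNPs, against 191 and 144 TPM in Cre-negative FNPs, and at 123 and 102 TPM in heterozygote mandibles, against 131 and 133 TPM in Cre-negative mandibles. All mutant libraries had 32.1 to 37.1 TPM. *Vcl*, vinculin of focal adhesions, stood at 45.6 and 49.0 TPM in heterozygote FNPs, against 41.01 and 48.8 TPM in Cre-negative FNPs, and at 40.0 and 55.1 TPM in heterozygote mandibles, against 41.3 and 47.8 TPM in Cre-negative mandibles. The groups overlapped in both tissues for *Vcl* and in the FNP for *Cnn2*, whose heterozygote mandibles lay below the Cre-negative ones, and the log2 fold changes were -0.17 for *Cnn2* (SE 0.0977) and 0.08 for *Vcl* (SE 0.0558), both with a limma adjusted p of 0.998. *Fhl2*, a LIM domain protein that can bind SRF, had -0.14 (SE 0.127) with 7.38 to 11.3 TPM in heterozygotes, against 8.23 to 11.47 TPM in Cre-negative embryos and 1.66 to 3.47 TPM in mutants. *Wdr1*, a partner of cofilin in filament disassembly, had -0.01, *Tpm4*, a tropomyosin, -0.01, *Lima1*, a filament crosslinker, -0.07, and *Ubald1* 0.10. The pseudogenes *Gm8399* and *Gm16385* had 0.11 and -0.03.

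*Flna*, filamin A, which crosslinks actin filaments and is X-linked, was the exception among the 12. It stood at 297 and 291 TPM in heterozygote FNPs, against 363 and 340 TPM in Cre-negative FNPs, and at 311 and 331 TPM in heterozygote mandibles, against 390 and 339 TPM in Cre-negative mandibles. The groups did not overlap in either tissue, although between the littermates of the second litter the mandible difference was only -0.03 on the log2 scale. The log2 fold change was -0.22 (SE 0.0540, 95% interval -0.35 to -0.10, limma unadjusted p = 0.00307, adjusted p = 0.998). Mutants had 188 to 222 TPM, and mutants over heterozygotes had -0.55 (SE 0.0511).

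**Figure D3:**
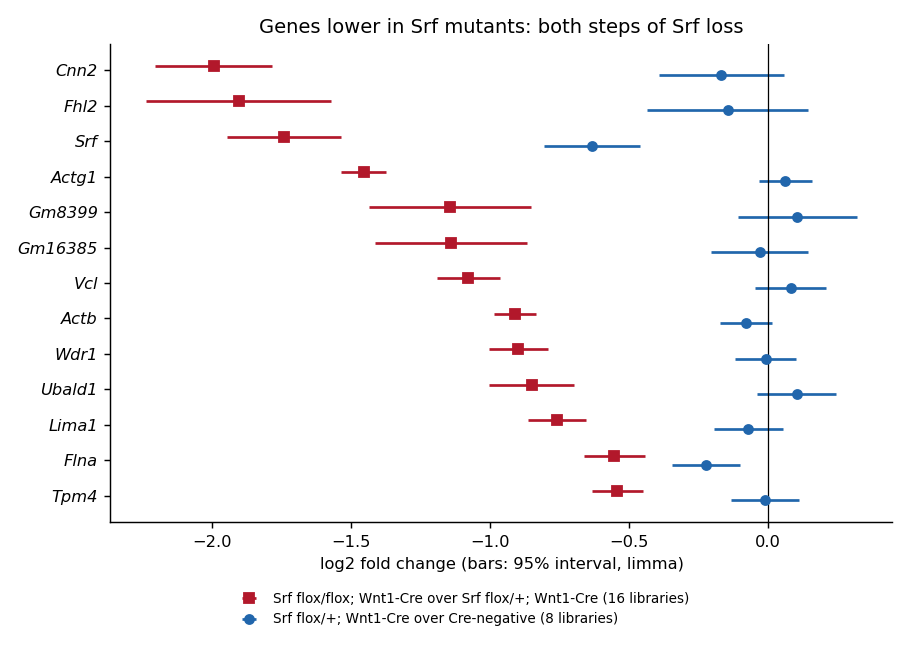
Log2 fold change (x axis) with its 95% limma interval for 13 genes (rows) that are lower in both tissues of mutants, for mutants over heterozygotes (red squares, 16 libraries) and for heterozygotes over Cre-negative embryos (blue circles, 8 libraries). *Srf* moved in both steps, *Flna* has a small interval below 0 in the step to heterozygotes, and the blue intervals of the other 11 genes hold 0 while their red values run from -1.99 to -0.54. The genes were chosen on mutants against these controls.

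In a wider list of 41 MRTF-SRF cytoskeletal targets, written from general knowledge and not taken from the study's own target lists, 39 were tested, none was called (limma), and 27 had a negative and 12 a positive log2 fold change, with a median of -0.04 beside 0.00 over all genes. At an unadjusted p under 0.05, 7 of the 39 were lower and none was higher, against 1.84% and 1.95% of all genes, and in 5 the groups did not overlap in either tissue with the heterozygotes below, against 1.49% of all genes. None lay above without overlap, against 1.43% of all genes, and over both directions the share of all genes without overlap was 2.92%. In mutants over heterozygotes 12 of the 39 were called, all lower, against 0.246% of all genes, and 7 of the 12 belong to the set of 13 that was chosen on these mutants. The 7 with an unadjusted p under 0.05 in heterozygotes were *Pdlim7*, *Tgfb1i1*, *Myl9*, *Flna*, *Tpm2*, *Zyx* and *Actn1*.

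*Myl9*, a regulatory light chain of myosin II in smooth muscle and nonmuscle cells, had the largest difference of the list in size. It stood at 35.6 and 23.5 TPM in heterozygote FNPs, against 61.4 and 59.4 TPM in Cre-negative FNPs, and at 25.1 and 23.3 TPM in heterozygote mandibles, against 28.6 and 44.4 TPM in Cre-negative mandibles. The log2 fold change of *Myl9* was -0.81 (SE 0.194, limma adjusted p = 0.998), and it was -1.12 without embryo 1 or 2 and -0.51 without embryo 7 or 8. Mutants had 12.6 to 22.6 TPM, and mutants over heterozygotes were not called (-0.62, limma adjusted p = 0.242). *Tpm2*, a tropomyosin of muscle, stood at 43.8 and 28.7 TPM in heterozygote FNPs, against 49.8 and 51.5 TPM in Cre-negative FNPs (log2 fold change over both tissues -0.48, SE 0.125, limma adjusted p = 0.998). *Tgfb1i1*, the focal adhesion protein Hic-5, had -0.38 (SE 0.0851) and *Pdlim7*, a PDZ and LIM domain protein of actin filaments, -0.23 (SE 0.0493, limma adjusted p = 0.817). The groups overlapped in both tissues for *Pdlim7* and in the mandible for *Tgfb1i1*, and both genes were lower in the heterozygote of all 4 littermate pairs (log2 differences of -0.60 to -0.24 for *Tgfb1i1* and of -0.33 to -0.11 for *Pdlim7*). *Zyx*, zyxin of focal adhesions, had -0.17 and *Actn1*, alpha-actinin that crosslinks filaments, -0.11. *Tagln*, the smooth muscle protein transgelin, had -0.32 with an interval that held 0 (-0.67 to 0.03). Smooth muscle markers summed to 97.8 to 114 TPM in heterozygote FNPs, against 105 to 113 TPM in Cre-negative FNPs. In the mandibles they summed to 91.4 to 104 TPM in heterozygotes, against 90.1 to 123 TPM in Cre-negative embryos. Other members carry most of these sums. In the FNPs *Acta2* was at 1.08 and 0.494 TPM in heterozygotes, against 1.05 and 1.99 TPM in Cre-negative embryos. *Tagln* was at 5.81 and 6.89 TPM there, against 6.47 and 9.09 TPM. The sums thus do not measure the cells that express *Acta2* and *Tagln*, and the part of smooth muscle in these values was not tested.

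**Figure D4:**
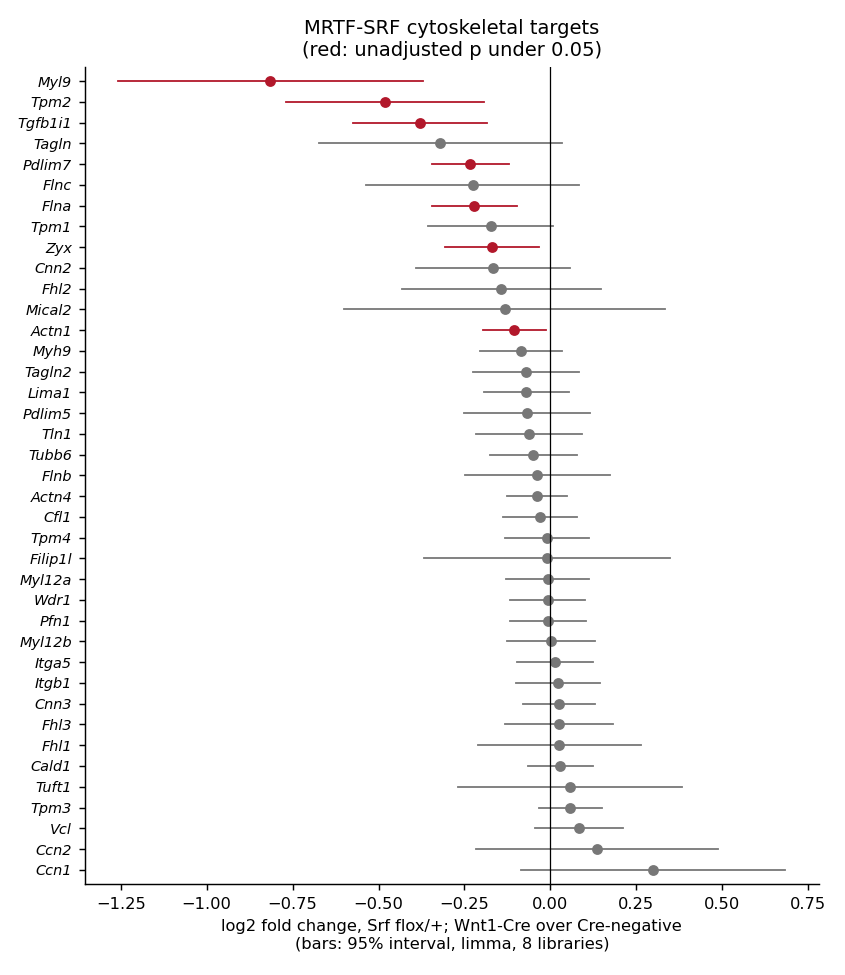
Log2 fold change of heterozygotes over Cre-negative embryos (x axis) with its 95% limma interval for the 39 MRTF-SRF targets tested (rows, ordered by value), with those at an unadjusted p under 0.05 in red. The 7 red genes all lie below 0, from *Myl9* at -0.81 to *Actn1* at -0.11, and most of the others lie within a short distance of 0.

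Immediate early genes, the targets of SRF with the ternary complex factors, held no called member. Of 24 listed, 19 were tested, none was called and none had an unadjusted p under 0.05 (limma), while 14 had a positive and 5 a negative log2 fold change, with a median of 0.10. *Egr1*, a zinc finger transcription factor and the listed gene with the smallest p, stood at 7.92 and 3.71 TPM in heterozygote FNPs, against 4.32 and 3.30 TPM in Cre-negative FNPs, and at 2.98 and 2.25 TPM in heterozygote mandibles, against 1.57 and 2.39 TPM in Cre-negative mandibles. The log2 fold change of *Egr1* was 0.47 (SE 0.223, limma adjusted p = 0.998), and it was 0.04 without embryo 1 or 2 and 0.89 without embryo 7 or 8. *Ier2* and *Klf4* had 0.12 and 0.20. Without embryo 1 or 2 the median of the list was 0.01.

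Other gene groups showed no called member (limma). None was called among 17 p53 target genes (median log2 fold change -0.02), 20 DNA replication and mitosis genes (0.01), 20 sterol synthesis genes (0.01) and 17 hypoxia and glycolysis genes (0.02), and none of these had an unadjusted p under 0.05. Of 34 craniofacial patterning genes 19 had a positive and 15 a negative log2 fold change, with a median of 0.04 and medians between littermates of 0.03 and 0.18 in the FNP and 0.09 and -0.06 in the mandible (first and second litter). At an unadjusted p under 0.05, 4 of the 34 were higher, against 1.95% of all genes, and their adjusted p was 0.998 (limma). They were *Dlx1*, *Dlx2*, *Dlx4* and *Gsc*, homeobox genes of the jaw. *Dlx1* stood at 150 and 141 TPM in heterozygote mandibles, against 125 and 101 TPM in Cre-negative mandibles, and at 5.18 and 1.71 TPM in heterozygote FNPs, against 1.67 and 1.70 TPM in Cre-negative FNPs. *Gsc* stood at 105 and 112 TPM in heterozygote mandibles, against 95.5 and 112 TPM in Cre-negative mandibles, a log2 fold change of 0.18 over both tissues.

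Markers of the cell types in the dissections were compared in the same way, and none of 11 lists had a called member (limma). Neural crest mesenchyme markers had a median log2 fold change of 0.04 over 8 genes and summed to 1347 to 2060.0 TPM in heterozygote FNPs, against 1430.1 to 1536 TPM in Cre-negative FNPs. Forebrain and olfactory placode markers had the lowest median, -0.28 with 10 of 11 genes negative, and neurons had -0.18 over 12 genes. The low medians were those of the FNP of the second litter, where the medians between littermates were -0.57 and -0.91, against 0.11 and 0.08 in the FNP of the first litter, and without embryo 7 or 8 the forebrain median was 0.08. *Elavl4*, a neuronal RNA-binding protein, stood at 11.7 and 7.89 TPM in heterozygote FNPs, against 13.3 and 18.8 TPM in Cre-negative FNPs. Skeletal muscle (median -0.16), smooth muscle (-0.06), endothelium (-0.04), surface epithelium (-0.03), cartilage (0.04), Schwann cell and glial precursors (0.08), erythroid cells (0.11) and macrophages (0.13) had medians nearer to 0 than those of the neurons. Of the 12 erythroid genes 11 were positive, but the medians between littermates differed in sign. They were -0.07 and 0.21 in the FNP and 0.45 and -0.05 in the mandible (first and second litter). *Hbb-bs* and *Hba-a2*, an alpha globin, were higher at an unadjusted p under 0.05 (limma adjusted p = 0.998), against 1.95% of all genes. No forebrain or neuron marker passed that mark. *Hbb-bs*, an adult beta globin, stood at 135 and 588 TPM in heterozygote FNPs, against 128 and 371 TPM in Cre-negative FNPs, a larger difference between litters than between genotypes. The part of these markers in the other results was not tested.

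No gene was called for a difference between tissues in the effect of heterozygosity. The interaction of tissue and genotype, with embryo as a block, called 0 of 14159 genes (limma), with 325 at an unadjusted p under 0.05 (2.3%). Leaving out embryo 1, 7 or 8 gave 40, 10 and 2 calls and leaving out embryo 2 gave 0, from fits with 1 embryo on a side. The interaction was 0.03 for *Actg1*, -0.08 for *H2az2* and 0.51 for *Myl9* on the log2 scale, each with a limma adjusted p of 0.9997.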

How the data were processed

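The FNP and the mandible of 8 E11.5 mouse embryos, separate animals, were sequenced as 16 libraries, and groups were taken from the sample labels. Litters were taken from the authors' deposited design table. Transcript abundance was estimated by the authors with Salmon 1.5.0 (mm10) and aggregated per gene by sleuth 0.30.0-4. The deposited gene table holds a signal, estimated counts of 15451 genes after division by size factors per library, so it keeps no read depth and no count model was fitted. The deposited TPM table (35639 genes) is also a signal, TPM scaled by a factor of each library. The authors' tables of comparisons hold fold changes, p-values and q-values and were not used.

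Genes that reached a value of 10 in 4 or more libraries were tested with limma 3.58.1 (R 4.3.3) with a variance trend on log2(value + 0.5), a scale that understates changes of low genes. Heterozygotes were compared with Cre-negative embryos in 8 libraries with tissue and litter as covariates, and the interaction was fitted with embryo as a block. Mutants were compared with heterozygotes in 16 libraries. Embryo numbers pair the 2 tissues of 1 animal and pair no samples across genotypes. With embryo as a random block the consensus correlation between the tissues of an embryo was -0.34 in 8 libraries and 0.14 in 16. The fit was tested on simulated data.

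The members, gene lists and tests were chosen with earlier results of these data known, and the pathway and marker lists, other than the set of 13 from an earlier fit, were written from general knowledge. Named genes are *Srf* and its cofactors, actins, *H2az2*, *Wnt1* and the 13 genes lower in mutants, the genes called, added genes of small p without overlap up to 8 a direction, up to 4 genes of each other list, and genes within 1 Mb of *H2az2* at an unadjusted p of at most 0.05. The other genes were named after their values were seen. Alternatives were the pseudocount (0.1 and 5), the filter on low values, the TPM table, library scaling, the variance trend, the litter term, the handling of embryos, all 16 libraries and leaving out each embryo. Coordinates are from GENCODE vM21 (GRCm38), in which *H2az2* has an older name and was matched through RefSeq. Plots used matplotlib 3.10.9 (Python 3.11.15).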

Additional observations from a re-analysis of the deposited data

Results flagged for a closer look

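Among mutants, 70 groups of 4 libraries (a named gene in a tissue) were examined for a library far from the other 3, and 13 had one. Chance gives about 1 in 20 for independent groups, but these share embryos. The sex-linked genes among them were named because they were called, so the count is not a test against chance. Of the 13 flagged libraries, 12 were of embryo 5. In its FNP *Gm26992* was at 128 TPM (others 0 to 1.57), *Eif2s3x* at 268 TPM (others 158 to 175), *Kdm6a* at 60.2 TPM (others 33.1 to 35.7), *Eif2s3y* at 0.130 TPM (others 58.3 to 64.7), *Ddx3y* at 0.106 TPM (others 31.0 to 36.9) and *Kdm5d* at 0.387 TPM (others 19.1 to 22.8). In its mandible *Gm26992* was at 64.9 TPM (others 0 to 3.67), *Eif2s3x* at 235 TPM (others 146 to 157), *Eif2s3y* at 0.0668 TPM (others 59.2 to 62.7), *Ddx3y* at 0.243 TPM (others 34.9 to 41.9), *Uty* at 0.0920 TPM (others 17.98 to 20.3) and *Actg2* at 0.365 TPM (others 0.601 to 0.619). The remaining one was *Actc1* at 1.49 TPM in the FNP of embryo 6 (others 0.0735 to 0.286). Groups of heterozygotes and Cre-negative embryos hold 2 libraries and were too small to examine. No interaction of tissue and genotype was called in the 8 control libraries (limma).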

How the results depend on the processing

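With 2 embryos a side, the calls rest on a variance borrowed across genes, and the depth behind single genes is not known. Of 14159 genes 11 were called between heterozygotes and Cre-negative embryos. The count was 4 with no variance trend, 6 with no litter term, 7 in the replicate block with tissues averaged per embryo, 1 in the fit of all 16 libraries and 1 with autosomal genes only, and it ran from 6 to 7 when an embryo was left out. Embryo as a random block gave 15, and all 16 libraries without embryo 5 gave 11. For *Srf* the log2 fold change stayed at -0.63 while the call was lost with no variance trend (limma adjusted p = 0.126), no litter term (0.9999), the replicate block with tissues averaged per embryo (0.346), all 16 libraries (0.140), all 16 without embryo 5 (0.0950) and autosomal genes only (0.149). These settings could not move the value, since the groups are balanced over tissue and litter. It ran from -0.70 to -0.56 with an embryo left out, and the call was lost there too. The replicate block with embryo as a random block kept the call (limma adjusted p = 0.00619). Its consensus correlation between tissues was negative (-0.34), which narrows the error of a difference between embryos, so it is not a stricter setting. Interaction calls (0) ran from 0 to 40 with an embryo left out. Calls between mutants and heterozygotes (40) were 14 with no litter term, 25 with embryo as a random block and 13 in the replicate block with tissues averaged per embryo, and ran from 16 to 69 with an embryo left out. The autosomal setting and the 16 libraries without embryo 5 were chosen after seeing the data. Of 11 called genes none changed sign in a setting, and of 102 named genes that were not called 27 did. In fits without 1 control embryo a lone embryo is assumed to vary like the others. The causes of these changes were not tested.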

Other observations

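Genes encoded in the mitochondrial genome were noticed after their values were seen. All 13 tested had a negative log2 fold change in heterozygotes, against 6985 of the 14159 genes tested, with a median of -0.20. The 13 share a genome and may vary together, so their agreeing signs are not 13 separate results. At an unadjusted p under 0.05, 8 were lower (1.84% of all genes were), although none was called (limma, smallest adjusted p = 0.998) and only *mt-Atp6*, an ATP synthase subunit, kept the groups apart in both tissues (log2 fold change -0.49, SE 0.134). The medians between littermates were -0.43 in the FNP and -0.17 in the mandible of the first litter, and 0.04 in the FNP and -0.19 in the mandible of the second. Summed over the 13 genes, the FNPs stood at 31593 and 40421 TPM in heterozygotes, against 40882 and 40801 TPM in Cre-negative embryos, and embryo 1 was the low one. The mandibles stood at 39339 and 37011 TPM in heterozygotes, against 43910.1 and 43478 TPM in Cre-negative embryos, with no overlap.

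Among autosomal genes that were higher in every heterozygote library of a tissue without being called, *Slc38a6*, a member of an amino acid transporter family, had a log2 fold change of 0.26 (SE 0.0597) and the unnamed gene *Gm9864* 0.27 (SE 0.0684), each with a limma adjusted p of 0.998. *Slc38a6* stood at 229 and 218 TPM in heterozygote FNPs, against 174 and 195 TPM in Cre-negative FNPs, and at 140 and 134 TPM in heterozygote mandibles, against 106 and 125 TPM in Cre-negative mandibles. The mutants had 108 to 183 TPM, 0.32 below the heterozygotes on the log2 scale in the fit of 16 libraries (log2 fold change -0.32, limma adjusted p = 0.0977). The cause of these differences was not tested.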
